A study of Mus musculus with 8 samples.

Results

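The mitochondrial ribosomal protein genes are the genes of the expression table whose symbol starts with Mrpl or Mrps followed by a number, with pseudogene entries left out. They number 77 of the 48709 genes listed, with 48 Mrpl genes named for the large subunit and 29 Mrps genes named for the small subunit. They lie on 17 chromosomes, with 10 genes on chromosome 11, 8 on chromosome 17 and 7 on chromosome 6. The study sequenced polyadenylated RNA from mouse bone marrow in 8 libraries. The groups are Ly6Chi monocytes with Upf2 knocked out (2 libraries), and a differentiation series of the monocyte-dendritic cell progenitor (MDP, 1 library), the common monocyte progenitor (cMoP, 2), control Ly6Chi monocytes (2) and Ly6Clo monocytes (1). The product of Upf2 works in nonsense-mediated mRNA decay.

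All control groups carry a wild-type genotype tag and are labelled untreated, while the descriptions of the cMoP and Ly6Chi controls call them floxed. The knockout monocytes are tagged as a knockout of Upf2, and the labels give no Cre driver, strain, sex or age. The source names give bone marrow and the growth protocol gives primary cells, while the cell type tag reads monocytic cell line. Nothing in the labels says that replicate libraries came from separate animals, so the p-values measure the spread between these libraries, which may be technical. MDP and Ly6Clo have no replicate, and the fits assume that their single libraries vary like the replicated groups.

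The mitochondrial ribosome makes the few proteins that the mitochondrial genome encodes, all of them core parts of the respiratory chain and the ATP synthase. Its RNAs are transcribed inside the organelle, whereas all of its proteins are encoded in the nucleus, made in the cytosol and imported. The large subunit joins amino acids and releases the chain through an exit tunnel, and the small subunit binds the mRNA and reads its codons. Names do not always give the place of a protein: the products of Mrps18a and Mrps30 sit in the large subunit, and the product of Mrps36 has been assigned to the oxoglutarate dehydrogenase complex.

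Promoters of these nuclear genes often carry sites for NRF1, for ETS-family factors including NRF2, and for YY1. The RefSeq promoter table of GRCm38.p6 gave 74 windows for 68 of the 77 genes, each with 250 bases before and 50 bases from the start of the gene. Mrpl4, Mrpl13, Mrpl15, Mrpl19, Mrpl38, Mrpl54, Mrps28, Mrps34 and Mrps35 were not matched. The windows of 4 genes are printed because the results turn on them: Mrpl12 and Mrps18b were among the largest falls in Ly6Chi monocytes, and Mrpl33 and Mrpl52 were the members called higher there than in MDP or cMoP. Capitals mark the NRF1 letters (GCGC and TGCGC with any base between) in Mrpl12 and the ETS letters CCGGAAG, in either direction, in the other windows. The windows are chr11:120484387-120484686 on the plus strand, chr17:35916391-35916690 on the minus strand, chr5:31613701-31614000 on the plus strand and chr14:54426659-54426958 on the plus strand, in the order of the lines.
Mrpl12: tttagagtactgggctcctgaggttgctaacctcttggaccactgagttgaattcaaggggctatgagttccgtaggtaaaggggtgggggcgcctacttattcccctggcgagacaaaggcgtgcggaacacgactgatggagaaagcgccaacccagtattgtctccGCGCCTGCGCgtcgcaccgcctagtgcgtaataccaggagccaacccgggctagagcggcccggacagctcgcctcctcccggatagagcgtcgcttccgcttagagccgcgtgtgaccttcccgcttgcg
Mrps18b: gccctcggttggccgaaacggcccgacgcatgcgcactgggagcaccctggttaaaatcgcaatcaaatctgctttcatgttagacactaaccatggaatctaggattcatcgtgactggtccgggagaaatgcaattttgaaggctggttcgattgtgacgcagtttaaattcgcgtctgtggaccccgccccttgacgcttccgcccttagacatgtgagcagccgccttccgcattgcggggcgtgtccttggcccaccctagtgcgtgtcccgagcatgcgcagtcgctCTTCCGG
Mrpl33: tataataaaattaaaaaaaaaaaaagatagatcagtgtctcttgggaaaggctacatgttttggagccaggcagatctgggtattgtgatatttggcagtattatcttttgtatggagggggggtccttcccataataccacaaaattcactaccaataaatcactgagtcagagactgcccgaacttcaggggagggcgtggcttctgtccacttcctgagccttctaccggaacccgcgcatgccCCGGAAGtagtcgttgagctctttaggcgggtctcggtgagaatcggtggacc
Mrpl52: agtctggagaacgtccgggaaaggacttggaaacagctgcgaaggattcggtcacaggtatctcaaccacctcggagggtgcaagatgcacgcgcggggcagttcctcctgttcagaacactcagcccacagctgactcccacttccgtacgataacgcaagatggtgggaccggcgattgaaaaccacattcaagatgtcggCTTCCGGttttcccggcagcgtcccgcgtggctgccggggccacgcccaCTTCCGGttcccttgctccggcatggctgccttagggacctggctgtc

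Searched on both strands, the ETS letters CCGGAAG were found in 33.8% of the 74 member windows and in 8.86% of all 32851 promoter windows of the table. The NRF1 letters were found in 17.6% of member windows and 4.6% of all windows. The YY1 letters AAGATGGCG were found in 10.8% of member windows and 1.40% of all windows. Any of these 3 motifs was present in 40 member windows, or 54.1%, and in 13.6% of all windows. The E-box CACGTG was found in 9.46% of member windows and 7.15% of all windows, the GC box GGGCGG in 52.7% and 35.7%, and CCAAT in 40.5% and 37.4%. Within the family, windows of genes called lower in Ly6Chi against cMoP (55) were set beside those of the others (19), without a test. The NRF1 letters were in 6 (10.9%) and 7 (36.8%) of them, and the ETS letters in 30.9% and 42.1%. Other motifs went the other way: YY1 at 12.7% and 5.26%, the E-box at 12.7% and 0.0%, and CCAAT at 45.5% and 26.3%. The GC box was level, at 52.7% and 52.6%. A match describes these letters only and is neither a binding site nor a cause of a level, and several windows can belong to 1 gene.

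Levels are given in TPM, a transcript's share of all transcripts after division by its length. The expression table gives no read counts, so depth is known only from the intron tables, in which spliced reads per library numbered 28925018 to 37833159. Of these, 50567 (Ly6Clo) to 215436 (cMoP replicate 2) fell on introns of the 77 genes. Marker genes were set against the labels. Of the 4 MDP markers, Flt3 and Kit were highest in MDP (Flt3 at 197 TPM, and at most 10.3 TPM in any other library), while Csf1r and Cx3cr1 were highest in Ly6Clo, at 1629 and 605 TPM, against 163 and 48.6 TPM in MDP. Of the 5 cMoP markers, Mpo and Elane were highest in cMoP. Mpo was 12416 and 10338 TPM in cMoP, against 3876 TPM in MDP, and Elane 5617 and 4842 TPM, against 219 TPM. Kit was lower in cMoP than in MDP, at 49.95 and 31.0 TPM, against 60.5 TPM. Csf1r was 169 and 89.9 TPM in cMoP, against 163 TPM in MDP. Ly6c2 did not tell Ly6Chi, at 3439 and 4057 TPM, from cMoP, at 4875 and 3518 TPM, whereas Ccr2 was 1401 and 1357 TPM in Ly6Chi, against 129 and 74.1 TPM in cMoP. Ace was 1164 TPM in Ly6Clo, against 31.5 and 15.1 TPM in Ly6Chi. Upf2 itself was listed at 20.4 and 22.5 TPM in the knockout, against 20.2 and 18.2 TPM in its controls. Reads joining exons 2 and 3 of Upf2, the junction that the labels' PCR assay targets, were 10 and 13 in the knockout, against 41 and 45 in its controls.

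All 77 genes passed the filter, which asked for 1 TPM or more in 2 or more libraries, among 13126 genes tested. Their TPM values summed to 5545 in the MDP library, 5893 and 8312 in the cMoP libraries, 4181 and 4224 in the Ly6Chi libraries, 3268 in the Ly6Clo library, and 5109 and 4778 in the knockout libraries. The sum thus had its peak in cMoP and its lowest value in Ly6Clo, and the MDP and knockout sums lay between those of cMoP and control Ly6Chi. As a share of all TPM, the sum was 0.327% in Ly6Clo, against 0.831% in cMoP replicate 2. Both subunits followed the same order: the Mrpl genes summed to 2110 TPM in Ly6Clo, against 5418 TPM in cMoP replicate 2, and the Mrps genes to 1158 TPM in Ly6Clo, against 2894 TPM in cMoP replicate 2. In bulk RNA, fewer cells of a type and less RNA per cell cannot be told apart.

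**Figure D1:**
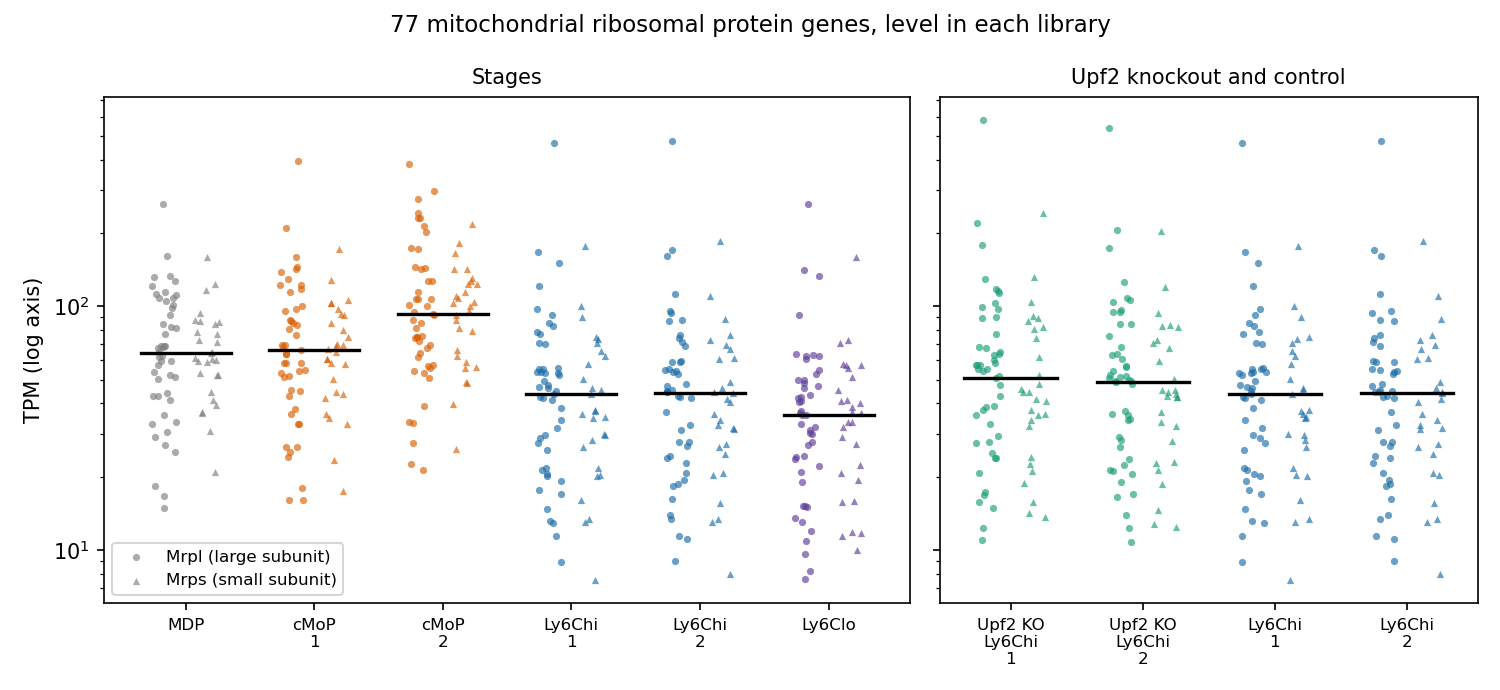
TPM of each of the 77 mitochondrial ribosomal protein genes in each library (circles for Mrpl and triangles for Mrps, log axis), with the median of the 77 genes in that library as a bar; the right panel sets the knockout beside its Ly6Chi controls. The median is 66.3 and 92.9 TPM in cMoP replicates 1 and 2, 43.8 and 44.1 TPM in Ly6Chi, and 35.9 TPM in Ly6Clo.

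A single library carried much of the cMoP peak. cMoP replicate 2 held the highest value of 72 of the 77 genes, while the highest was in knockout replicate 1 for 3 genes and in MDP and Ly6Clo for 1 gene each. The lowest value was in Ly6Clo for 61 genes, in Ly6Chi replicate 1 for 8 and in Ly6Chi replicate 2 for 6. By group mean, cMoP was highest for 67 genes and Ly6Clo lowest for 64. The ratio of the highest to the lowest library ran from 1.18 for Mrpl24 to 7.79 for Mrps28, and 64 genes spanned at least 2-fold. The counts of called members that rest on cMoP are therefore given with and without its replicate 2.

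The members kept much the same rank order in every library, with Spearman's rho across the 77 genes of 0.806 (Ly6Clo and cMoP replicate 2) or more for any pair of libraries; these are correlations across genes, which are not independent replicates. The highest mean level belonged to Mrpl33, followed by Mrps21, Mrpl30, Mrpl52, Mrpl42, Mrpl24, Mrps16 and Mrpl20. The lowest 5 were Mrps6, Mrps31, Mrpl57, Mrpl1 and, last, Mrpl11, whose product sits at the base of the flexible stalk that recruits translation factors. Mrpl33 (ENSMUSG00000106918, chromosome 5, 31596935 to 31664384) encodes a small large-subunit protein. The MDP library held 263 TPM of it, the cMoP libraries 393 and 385, the Ly6Chi libraries 469 and 478, the Ly6Clo library 262, and the knockout libraries 584 and 538. The lowest-ranked gene, Mrpl11, measured 18.36 TPM in the MDP library, 17.98 and 27.57 in the cMoP libraries, 8.92 and 9.01 in the Ly6Chi libraries, 8.22 in the Ly6Clo library, and 10.98 and 10.83 in the knockout libraries. Thus Mrpl33 was highest in the knockout and in Ly6Chi, while Mrpl11 was highest in cMoP replicate 2. The rank of Mrpl11 rests on TPM only, and spliced reads scaled to the library's total gave another order. In MDP, first-intron and last-intron reads were 12.7 and 15.4 for Mrpl11. They were fewer for some members, at 5.29 and 6.63 for Mrpl45, 2.37 and 5.70 for Mrpl1, and 5.84 and 4.64 for Mrps6. Mrpl33, the highest by TPM, had 0.893 and 0.344, and Mrpl42 had more than Mrpl11, at 31.4 and 21.4. The cause of the difference was not tested.

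Reads of some members may be shared with other genes. Exons of 32 members overlap those of another annotated gene, on the same strand for 8 and on the opposite strand for 27. On the same strand, the overlap takes 88.0% of the exon bases of Mrpl53 (with Gm42688), 37.0% of Mrps34 (with Nme3) and 23.2% of Mrps18c (with Gm43511). It takes 19.9% of Mrps6 with Gm49711 and 10.4% with Slc5a3, and 15.4% of Mrps24 (with Urgcp). On the opposite strand it takes 69.8% of Mrps25 (with Nr2c2) and 63.4% of Mrps34 (with Mapk8ip3). The pseudogene Mrpl23-ps1 was listed at 22.8 to 65.6 TPM, beside 47.1 to 92.4 TPM for Mrpl23. The values of these genes are uncertain.

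Most of the family fell in Ly6Chi monocytes relative to cMoP. Of the 77 genes, 61 were called lower in Ly6Chi (limma, Benjamini-Hochberg adjusted p under 0.05) and 1 higher, while 23.3% of all genes tested were called lower and 32.3% higher. Both subunits took part, with 36 of 48 Mrpl and 25 of 29 Mrps genes called lower. The mean TPM of 36 of the 61 fell at least 2-fold, a count of 16 without cMoP replicate 2. Changes are on the log2(TPM + 1) scale, and since the median of all genes tested was itself 0.19 higher in Ly6Chi, they are given relative to that median while the calls rest on the change before this shift. On this scale the 61 falls ran from -2.47 to -0.60, and the median of the 77 genes was -1.11. In 71 genes both Ly6Chi libraries lay below both cMoP libraries, which held for 34.2% of all genes tested.

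**Figure D2:**
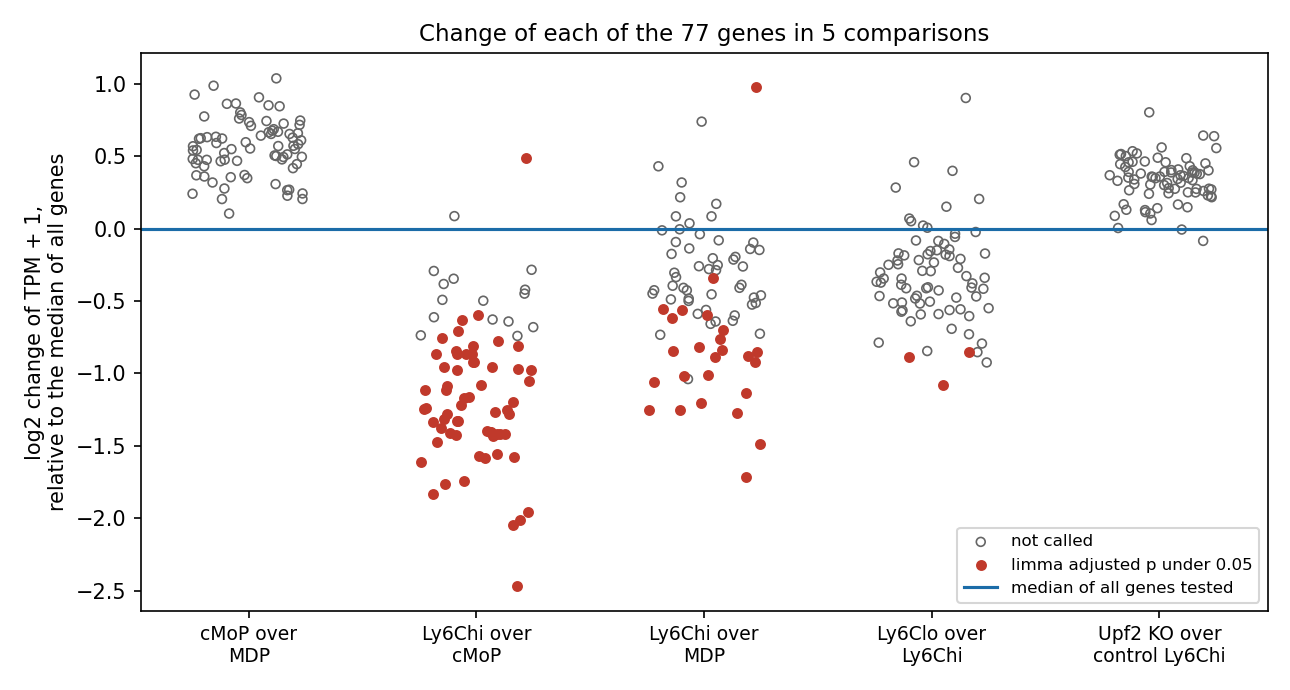
Change of each of the 77 genes in 5 comparisons, as log2 of TPM + 1 minus the median change of all genes tested (blue line at 0); red points were called by limma at an adjusted p under 0.05, and open points were not. In Ly6Chi over cMoP the points run from -2.47 to 0.49 with 62 called, and in the knockout over control Ly6Chi 75 of 77 points lie above the median of all genes with none called.

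The largest fall was that of Mrpl12 (ENSMUSG00000039640, chromosome 11, 120484613 to 120489065), which encodes the L7/L12 protein of the factor-recruiting stalk and whose promoter window is printed above. It measured 38.3 and 42.3 TPM in Ly6Chi, against 142 and 276 TPM in cMoP. The groups did not overlap, and the mean was 5.19-fold lower in Ly6Chi (-2.47 ± 0.30 relative to all genes, SE here and below; limma adjusted p = 0.00236). Mrps6, for a small-subunit protein next to S18, measured 7.53 and 7.99 TPM in Ly6Chi, against 23.5 and 39.7 TPM in cMoP, and was 4.07-fold lower (-2.04 ± 0.26, adjusted p = 0.00279). Reads of Mrps6 may be shared with Gm49711 and Slc5a3. Mrps28, for another small-subunit protein, measured 20.4 and 20.7 TPM in Ly6Chi, against 61.0 and 91.9 TPM in cMoP, and was 3.72-fold lower (-2.01 ± 0.21, adjusted p = 0.0016). In all 3 genes the Ly6Chi replicates lay close together and the cMoP replicates far apart.

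Mammals have 3 genes related to bacterial S18, and all 3 fell in Ly6Chi. Mrps18b (ENSMUSG00000024436, chromosome 17, 35910379 to 35916389) measured 29.9 and 31.6 TPM in Ly6Chi, against 79.6 and 143 TPM in cMoP (-1.96 ± 0.27, limma adjusted p = 0.00368). Mrps18a, whose product lies in the large subunit, measured 45.3 and 49.1 TPM in Ly6Chi, against 74.6 and 109 TPM in cMoP (-1.11 ± 0.20, adjusted p = 0.0109). Mrps18c, whose reads may be shared with Gm43511, measured 73.7 and 69.6 TPM in Ly6Chi, against 91.7 and 123 TPM in cMoP (-0.76 ± 0.17, adjusted p = 0.0327). No library of Ly6Chi reached a cMoP value in any of the 3, and the differences between their falls were not tested. Without the first or second Ly6Chi library the call was lost for Mrps18a (adjusted p = 0.0747 and 0.0544) and for Mrps18c (0.121 and 0.155), and Mrps18c was called in 6 of 13 other settings in all.

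Further large-subunit falls were those of Mrpl47, near the exit tunnel, at 11.4 and 11.4 TPM in Ly6Chi, against 26.4 and 53.5 TPM in cMoP (-1.84 ± 0.32, limma adjusted p = 0.00833, and 0.051 without Ly6Chi replicate 1), and of Mrpl19 at 21.7 and 23.8 TPM in Ly6Chi, against 51.5 and 75.4 TPM in cMoP (-1.61 ± 0.22, adjusted p = 0.00355). Mrpl38, of the central protuberance, measured 21.4 and 20.8 TPM in Ly6Chi, against 44.8 and 72.2 TPM in cMoP (-1.59 ± 0.23, adjusted p = 0.00481). Mrpl51 measured 70.3 and 68.6 TPM in Ly6Chi, against 144 and 231 TPM in cMoP (-1.58 ± 0.22, adjusted p = 0.00442). Among these 4 the cMoP libraries were again all above the Ly6Chi libraries. In the small subunit, Mrps5, of the mRNA entry site, measured 43.8 and 44.1 TPM in Ly6Chi, against 106 and 165 TPM in cMoP, and Mrps27, a pentatricopeptide repeat protein, 13.4 and 13.5 TPM in Ly6Chi, against 34.7 and 49.0 TPM in cMoP. Mrps5 was 3.09-fold lower (adjusted p = 0.00332) and Mrps27 3.12-fold lower (adjusted p = 0.00207).

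The other genes of the stalk were called lower too, and the differences between their falls were not tested. Mrpl10, which anchors Mrpl12 to the ribosome, measured 47.8 and 44.6 TPM in Ly6Chi, against 58.8 and 67.3 TPM in cMoP (-0.63 ± 0.13, limma adjusted p = 0.0317), a fall of 1.37-fold beside the 5.19-fold of Mrpl12. That call held in 7 of 13 other settings and was lost without any 1 of the Ly6Chi or knockout libraries (adjusted p = 0.0725 to 0.189). Mrpl11, at the base of the same stalk, was 2.54-fold lower in Ly6Chi (adjusted p = 0.00671, and 0.051 without Ly6Chi replicate 1). Mrpl45, which ties the ribosome to the inner membrane, measured 17.7 and 16.2 TPM in Ly6Chi, against 26.4 and 39.1 TPM in cMoP (-1.08 ± 0.21, adjusted p = 0.0156, but 0.075 and 0.0955 without the first or second Ly6Chi library). Mrps36 was lower as well, at 34.98 and 32.44 TPM in Ly6Chi, against 61.0 and 81.2 TPM in cMoP (-1.24 ± 0.17, adjusted p = 0.00437).

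A single gene was called higher. Mrpl52 (ENSMUSG00000010406, chromosome 14, 54426909 to 54429756), for a large-subunit protein and with 2 ETS matches in its promoter window, measured 151 and 170 TPM in Ly6Chi, against 86.7 and 114 TPM in cMoP. The groups did not overlap, and the mean was 1.6-fold higher in Ly6Chi (0.49 ± 0.16, limma adjusted p = 0.0165). That call was lost after centring each library on its median (adjusted p = 0.296) and without the first (0.063) or the second Ly6Chi library (0.106). The 15 members that were not called were Mrpl4, Mrpl9, Mrpl14, Mrpl24, Mrpl30, Mrpl32, Mrpl33, Mrpl39, Mrpl43, Mrpl48, Mrpl57, Mrps16, Mrps21, Mrps23 and Mrps24. They include 5 of the 8 genes with the highest mean level. Mrpl24, for a protein at the exit tunnel, measured 121 and 112 TPM in Ly6Chi, against 123 and 127 TPM in cMoP. Mrpl33 was at 1.22-fold of the cMoP mean (adjusted p = 0.0556), and its sign turned after median centring.

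**Figure D3:**
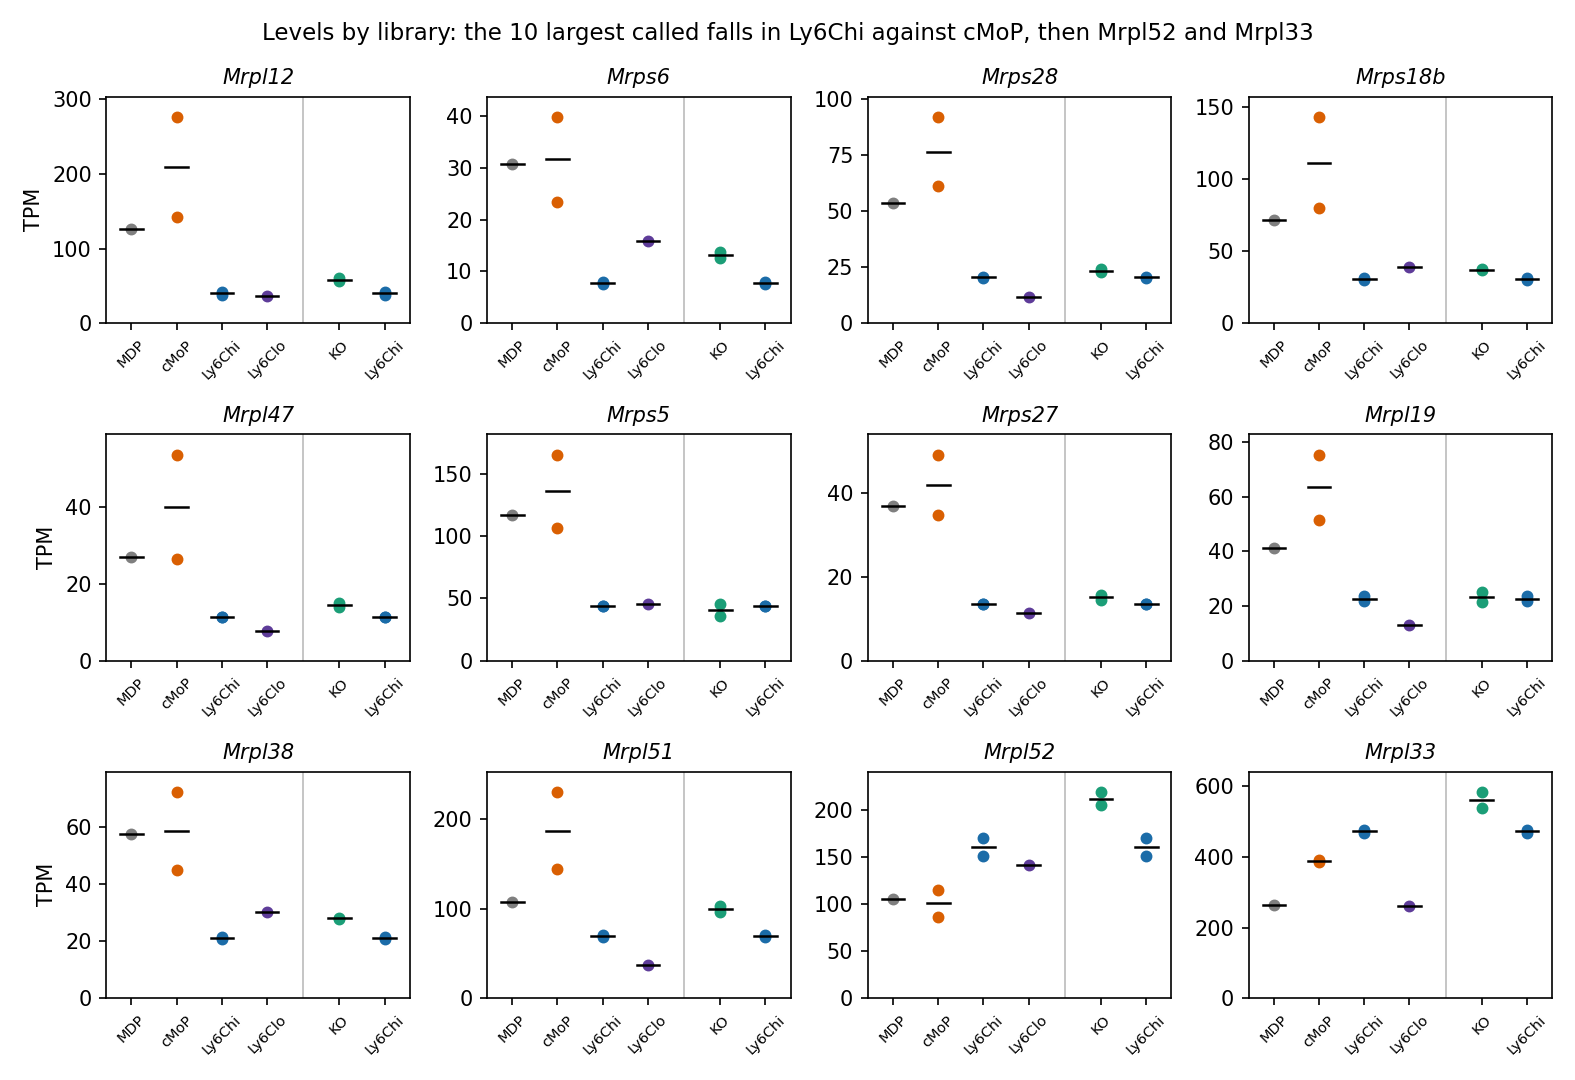
TPM by library (points) and group mean (bars) for the 10 largest falls called in Ly6Chi against cMoP and for Mrpl52 and Mrpl33; the knockout and its Ly6Chi controls are at the right of each panel, and each panel has its own axis from 0. In the 10 falls every Ly6Chi library lies below both cMoP libraries, for example 38.3 and 42.3 TPM in Ly6Chi against 142 and 276 TPM in cMoP for Mrpl12.

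Leaving out cMoP replicate 2 left 59 genes lower and 1 higher in Ly6Chi, where 24.7% of all genes were lower and 26.9% higher, with a member median of -0.65, against 0.06 over all genes. Leaving out a Ly6Chi library had more effect on the calls: 26 genes (33.8%) were called lower without Ly6Chi replicate 1, against 12.3% of all genes, and 30 (39.0%) without replicate 2, against 12.2%. With each library centred on its median, 66 genes were called lower and none higher, and over all genes 3354 were higher and 4462 lower, in place of 4235 higher and 3053 lower. Quantile normalisation gave 68 lower and 1 higher, with 3695 higher and 4423 lower over all genes. RNA of the cMoP libraries leaned further to the 3' end: over 3382 genes, the log2 ratio of last-intron to first-intron spliced reads had a median of 0.58 and 0.58 in Ly6Chi, and 0.76 and 1.07 in cMoP. Over the 30 members in that set it was 0.37 and 0.44 in Ly6Chi, and 0.42 and 0.65 in cMoP. The 7 neutrophil markers summed to 1292 and 1680 TPM in Ly6Chi, against 391 and 290 TPM in cMoP. The part of the lean and of these markers in the member levels was not tested. First-intron spliced reads, scaled to the library's total, were lower in both Ly6Chi libraries than in both cMoP libraries for 41 of 42 members (97.6%, against 30.9% of 6732 genes), and last-intron reads for 40 of 42 (95.2%, against 42.6%).

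The step before, to cMoP, gave no call. Of the 77 genes, 0 passed limma's adjusted threshold in cMoP against MDP, where 1.35% of all genes were called higher and 2.52% lower. An unadjusted limma p under 0.05 was found for 4 of the 77 members, beside 3532 of all 13126 genes. The median member change was 0.57 above that of all genes, and all 77 lay above it. In 43 genes both cMoP libraries exceeded the MDP library, which held for 17.8% of all genes, and in 2 genes both lay below it, against 59.1% of all genes. Mrpl33 came closest to the threshold, at 393 and 385 TPM in cMoP, against 263 TPM in MDP (0.85 ± 0.12, adjusted p = 0.0712). Without cMoP replicate 2 the median member change was 0.03, against -0.19 over all genes, and 0 genes were called, whereas without cMoP replicate 1 the test called 48 genes (62.3%) higher, where 8.11% of all genes were higher and 29.4% lower. Neutrophil markers summed to 391 and 290 TPM in cMoP, against 1482 TPM in MDP, dendritic cell markers to 0.69 and 0.27 TPM, against 33.7 TPM, and the 3' lean was 0.76 and 1.07 in cMoP, against 0.53 in MDP. Their part in the member levels was not tested. The split of all calls moved with scaling: 177 genes were called higher and 331 lower, after median centring 408 higher and 295 lower, and after quantile normalisation 494 higher and 379 lower.

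Ly6Chi monocytes were also set against MDP, a comparison that shares the Ly6Chi libraries with the one above. Here 24 genes were called lower and 1 higher (limma), while 25.6% of all genes were called lower and 18.2% higher, beside 31.2% of members called lower. The member median was nevertheless -0.46 relative to all genes. Mrps6 had the largest fall, at 7.53 and 7.99 TPM in Ly6Chi, against 30.7 TPM in MDP (-1.72 ± 0.32, adjusted p = 0.00679). Mrpl12 was 3.14-fold lower (adjusted p = 0.017), at 38.3 and 42.3 TPM in Ly6Chi, against 127 TPM in MDP. Mrps2, for a small-subunit protein, measured 21.8 and 20.4 TPM in Ly6Chi, against 52.5 TPM in MDP (adjusted p = 0.00686), and Mrps22 16.1 and 15.6 TPM in Ly6Chi, against 36.5 TPM in MDP (adjusted p = 0.0295). Mrps10, the homologue of bacterial S10, was 2.27-fold lower (adjusted p = 0.0196), and Mrpl38, Mrps5, Mrps27, Mrps28 and Mrps18b complete the 10 largest falls, at 2.33-fold to 2.74-fold. The gene called higher was Mrpl33, at 469 and 478 TPM in Ly6Chi, against 263 TPM in MDP (1.80-fold, 0.98 ± 0.12, adjusted p = 0.00399). The count depended on which libraries set the spread: without either cMoP library 58 members (75.3%) were called lower and 3 higher, against 33.4% of all genes lower. Without either Ly6Chi library 3 (3.9%) were lower and 1 higher, against 12.7% and 12.3% of all genes lower, and without either knockout library 11 (14.3%) were lower and 1 higher, against 19.5%. The calls of Mrps2, Mrps6, Mrps27 and Mrpl33 held without either Ly6Chi library.

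In Ly6Clo monocytes the summed level was lower still, but few genes passed the test. Against Ly6Chi, 3 of the 77 genes were called lower and 0 higher by limma, where 7.12% of all genes were called lower and 5.9% higher. An unadjusted limma p under 0.05 was found for 18 of the 77 members, beside 3719 of all 13126 genes. In 62 genes the Ly6Clo library lay below both Ly6Chi libraries, against 41.2% of all genes, and the member median was -0.34 relative to all genes. Mrpl28 measured 40.9 TPM in Ly6Clo, against 83.1 and 87.6 TPM in Ly6Chi (2.08-fold lower, -1.08 ± 0.18, adjusted p = 0.018). Mrps14, for a small-subunit protein, measured 40.3 TPM in Ly6Clo, against 70.8 and 72.5 TPM in Ly6Chi (-0.85 ± 0.17, adjusted p = 0.0334). Mrpl33 measured 262 TPM in Ly6Clo, against 469 and 478 TPM in Ly6Chi (-0.89 ± 0.12, adjusted p = 0.00966). The MDP library held 263 TPM of Mrpl33. Some genes that had fallen furthest in Ly6Chi were not lower in Ly6Clo: Mrps6 measured 15.8 TPM in Ly6Clo, against 7.53 and 7.99 TPM in Ly6Chi (not called, adjusted p = 0.12).

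Markers of other cells also differed in the Ly6Clo library. All 7 neutrophil markers were listed, and they summed to 4849 TPM in Ly6Clo, against 1292 and 1680 TPM in Ly6Chi. The sum of 5 dendritic cell markers was 357 TPM in Ly6Clo, against 19.1 and 18.3 TPM in Ly6Chi, that of 6 erythroid markers 309 TPM, against 34.99 and 187 TPM, that of 5 B and plasma cell markers 48.04 TPM, against 17.6 and 17.4 TPM, and that of 4 T and NK cell markers 1.64 TPM, against 0.96 and 0.73 TPM. Most of the dendritic cell sum in Ly6Clo was Itgax (186 TPM) and Cd209a (168 TPM), while Xcr1 was lower, at 0.09 TPM, against 0.14 and 0.13 TPM. The part of all these markers in the lower member levels was not tested. Calls in this comparison also moved with the libraries used: without cMoP replicate 1 or 2, 28 (36.4%) and 27 (35.1%) members were lower and 3 higher, against 14.5% and 14.3% of all genes lower. Without either Ly6Chi library 0 members were called, and without either knockout library 1 was.

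In Upf2-knockout Ly6Chi monocytes the members lay slightly and broadly higher, and none passed. limma called 0 of 77 genes in either direction, where 0.0% of all genes were called higher and 0.00762% lower. An unadjusted limma p under 0.05 was found for 2 of the 77 members, beside 1910 of all 13126 genes. In 61 genes both knockout libraries exceeded both controls, against 22.8% of all genes, and in 2 genes both lay below, against 45.5%. The member median was 0.35 above that of all genes, and 75 of 77 genes lay above the all-gene median. Mrpl14 measured 58.3 and 57.2 TPM in the knockout, against 43.8 and 45.4 TPM in control Ly6Chi (0.49 ± 0.11, adjusted p = 0.336). Mrps6 measured 13.7 and 12.5 TPM in the knockout, against 7.53 and 7.99 TPM in control Ly6Chi (0.80 ± 0.26, adjusted p = 0.337). Mrpl52 measured 219 and 205 TPM in the knockout, against 151 and 170 TPM in control Ly6Chi (adjusted p = 0.342). In these 3 genes the groups did not overlap.

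Some monocyte, progenitor and dendritic cell markers moved as well, not all in the same direction. Cx3cr1 was 74.3 and 96.7 TPM in the knockout, against 253 and 233 TPM in control Ly6Chi, and Ccr2 656 and 883 TPM, against 1401 and 1357 TPM. Ly6c2 was higher, at 4472 and 4817 TPM in the knockout, against 3439 and 4057 TPM. Elane was 266 and 235 TPM, against 144 and 191 TPM. Mpo overlapped, at 115 and 79.7 TPM, against 77.2 and 97.3 TPM, and Kit was 0.18 and 0.13 TPM, against 0.3 and 0.31 TPM. The dendritic cell markers summed to 3.49 and 5.56 TPM in the knockout, against 19.1 and 18.3 TPM in control Ly6Chi, while the neutrophil sums overlapped. Most of the dendritic cell sum was Cd209a, at 2.06 and 4.36 TPM in the knockout, against 16.63 and 16.9 TPM. Itgax, Zbtb46, Siglech and Xcr1 were at most 1.71 TPM in these libraries and did not separate the groups. The part of all these markers in the member levels was not tested. The 3' lean differed here too, with a median over 3382 genes of 0.98 and 0.73 in the knockout, against 0.58 and 0.58 in its controls, and its part in the member levels was not tested. Over the 30 members it was 0.46 and 0.39 in the knockout, against 0.37 and 0.44 in its controls. Scaled first-intron reads were higher in both knockout libraries for 36 of 42 members (85.7%, against 22.7% of all genes), and last-intron reads for 39 of 42 (92.9%, against 42.3%).

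Other genes of mitochondrial gene expression were counted in the comparison of Ly6Chi with cMoP, from lists made with earlier results of these data known. In these counts, genes that fell or rose are those called lower or higher by limma. Over all genes tested, 23.3% were called lower and 32.3% higher. Of 6 measured mitoribosome proteins that carry other names, 4 fell and 0 rose: Gadd45gip1, an exit-tunnel protein, Chchd1, Ptcd3 and Dap3, a GTP-binding small-subunit protein. Of 11 translation factors 6 fell and 0 rose, among them the elongation factor Tufm at 56.4 and 54.7 TPM in Ly6Chi, against 126 and 207 TPM in cMoP (-1.72 ± 0.24, limma adjusted p = 0.00385). Its exchange factor Tsfm measured 15.8 and 16.7 TPM in Ly6Chi, against 45.8 and 67.2 TPM in cMoP. Of 23 genes for aminoacyl-tRNA synthetases and tRNA charging 12 fell and 2 rose. Of 24 import genes 23 fell and 0 rose, with a list median of -1.29 relative to all genes. The import motor Hspa9 measured 61.4 and 62.4 TPM in Ly6Chi, against 223 and 369 TPM in cMoP (-2.39 ± 0.24, adjusted p = 0.00128).

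Of 22 assembly factors of the mitochondrial ribosome 8 fell and 1 rose, with a list median of -0.53 relative to all genes, and of 22 genes for mitochondrial DNA and RNA synthesis and processing 12 fell and 2 rose (-0.72). Of the 13 mRNAs that the mitochondrial genome encodes, which are the templates of this ribosome, 7 fell and 0 rose (-0.79). Their TPM summed to 65961 in the MDP library, 61548 and 45583 in the cMoP libraries, 43406 and 35981 in the Ly6Chi libraries, 34516 in the Ly6Clo library, and 27543 and 35874 in the knockout libraries. The template sum was thus highest in MDP, and within cMoP it was lower in replicate 2, where the ribosomal protein sum was highest. In the knockout, 0 genes of any of these lists were called by limma, where only 1 of all 13126 genes was called. In Ly6Clo against Ly6Chi, 7.12% of all genes were called lower and 5.9% higher. The called list genes there were Ict1, a peptidyl-tRNA hydrolase of the large subunit (-1.34 relative to all genes on the log2 scale), Lars2, Hsd17b10 and, the only rise, Ears2.

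**Figure D4:**
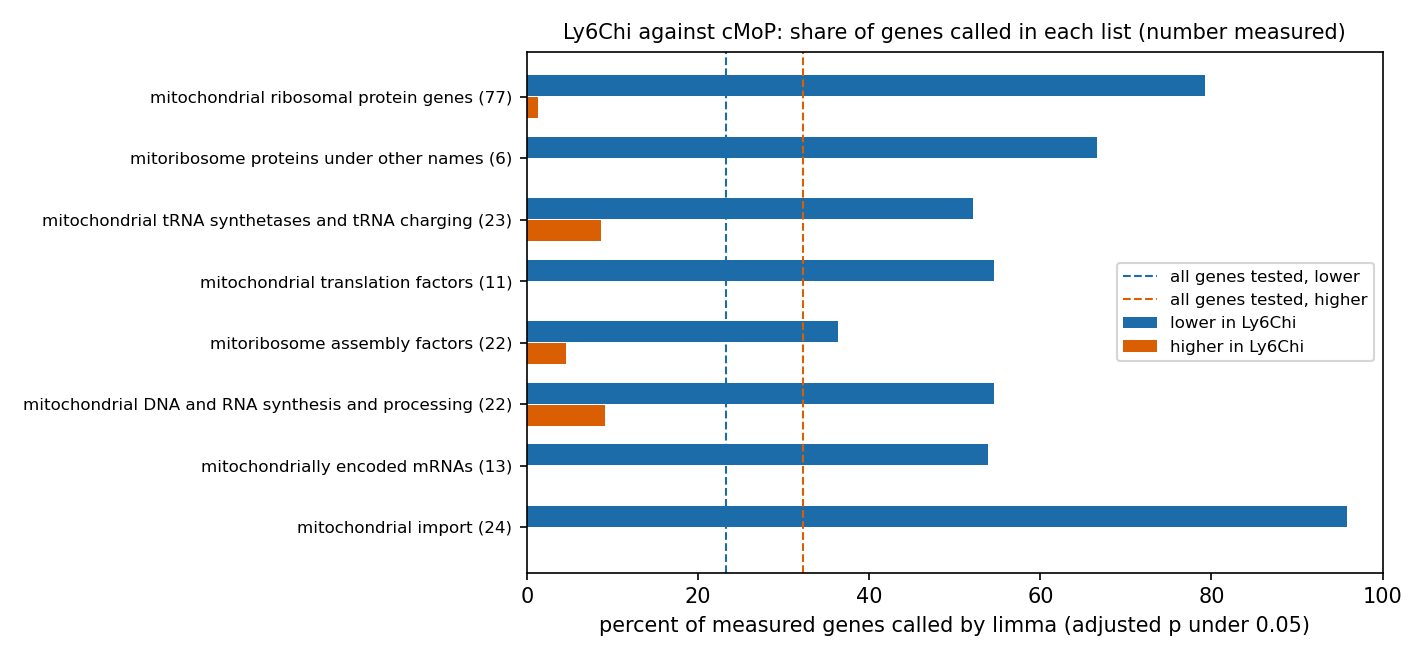
Percent of measured genes called lower (blue) and higher (orange) in Ly6Chi against cMoP, for the 77 mitochondrial ribosomal protein genes and 7 lists of other mitochondrial gene expression genes, with the number measured in parentheses; dashed lines mark 23.3% lower and 32.3% higher over all genes tested. The import list (23 of 24 lower) and the ribosomal protein genes (61 of 77 lower) have the longest bars.

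Retention of introns was read from deposited tables with 1 intron per line. The deposited retention ratio is the intron's read depth divided by that depth plus the spliced reads, so that 0 is full splicing. Of 366 member introns common to all tables, 233 were free of a mark for overlapping genes, and 193 in 52 genes had at least 10 spliced reads in every library. All 193 match introns of GENCODE M21. The mean ratio reached 0.1 in 4 of them, and none reached it in every library. A ratio of at least 0.1 was found in 4 introns of the MDP library, 3 and 0 of the cMoP libraries, 8 and 6 of the Ly6Chi libraries, 21 of the Ly6Clo library, and 3 and 2 of the knockout libraries. The member share was below that of all introns in the other 7 libraries, at 2.07% against 5.17% in MDP, 1.55% and 0.0% against 3.73% and 1.12% in cMoP, 4.15% and 3.11% against 5.20% and 4.97% in Ly6Chi, and 1.55% and 1.04% against 2.70% and 3.19% in the knockout. The Ly6Clo count is 10.9% of the 193 introns (95% Wilson interval 7.23 to 16.1), beside 7.05% of 64483 introns in all. In the other libraries the direction depended on the measure. The median ratio of member introns was above that of all introns in every library except cMoP replicate 2. In Ly6Chi replicate 1 it was 0.00863, against 0.00621. Reads across exon-intron boundaries, per 100 spliced reads, were higher for members in every library when introns deposited with a warning were included. In Ly6Chi replicate 1 they were 7.36, against 5.28. Among introns without a warning in the library, members were higher in MDP (5.02 against 4.09) and Ly6Clo (7.38 against 6.25). They were lower in cMoP (3.14 and 1.25 against 3.79 and 1.46), Ly6Chi (4.72 and 3.91 against 4.75 and 5.07) and the knockout (3.22 and 3.72 against 3.51 and 3.81). These differences were not tested. The 0 of 193 introns in cMoP replicate 2 allows a share of up to 1.55% (3 counts), and intervals and this limit cover counting error only.

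**Figure D5:**
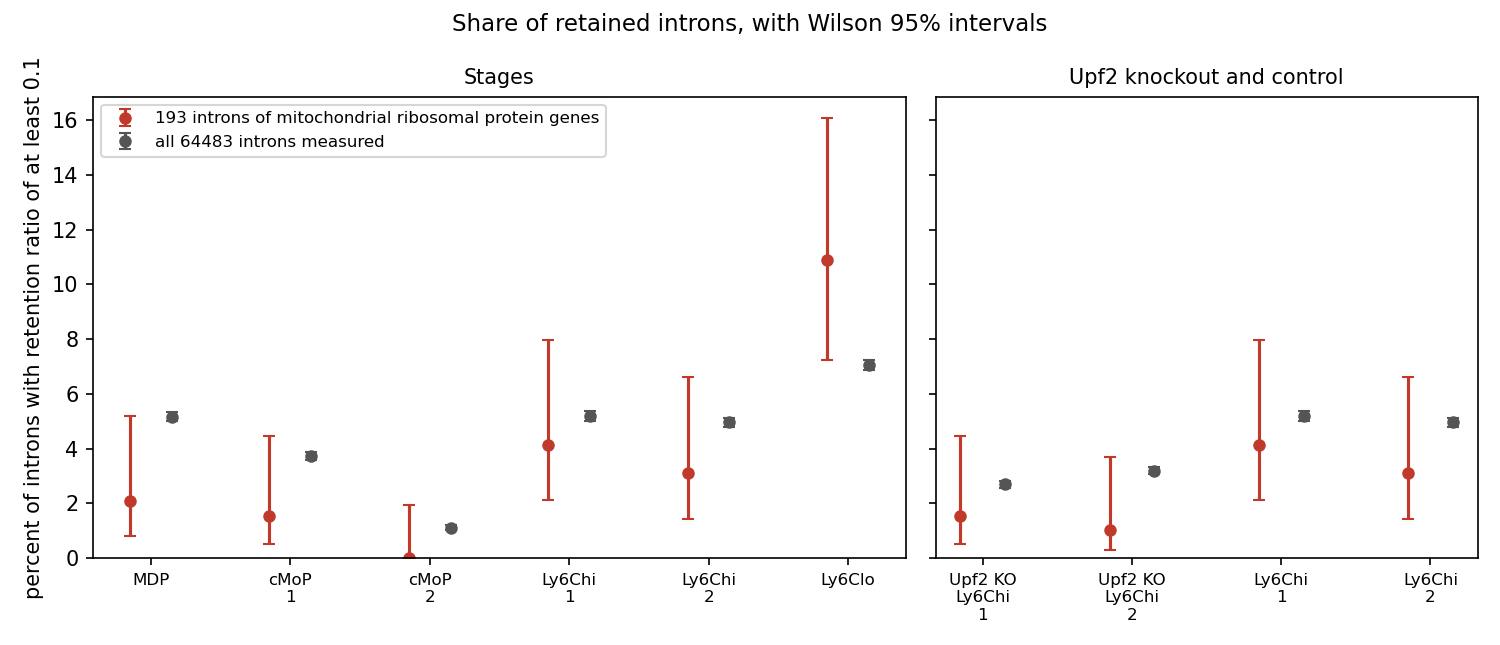
Percent of introns with a retention ratio of at least 0.1 in each library, for 193 introns of mitochondrial ribosomal protein genes (red) and for all 64483 introns measured (grey), with 95% Wilson intervals; the knockout and its Ly6Chi controls are in the right panel. The member share is highest in Ly6Clo at 10.9% (interval 7.23 to 16.1), beside 7.05% of all introns, and it is 0 of 193 in cMoP replicate 2. Intervals cover counting error only and treat introns of the same gene as independent, and Ly6Clo has no replicate.

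The most retained intron was intron 3 of Mrpl38, 74 bp between coding exons on chromosome 11 (116135117 to 116135190, mm10, minus strand). Its ratio was 0.143 for the MDP library, 0.131 and 0.0855 for the cMoP libraries, 0.267 and 0.208 for the Ly6Chi libraries, 0.273 for the Ly6Clo library, and 0.117 and 0.166 for the knockout libraries. Intron 5 of Mrpl4, 489 bp on chromosome 9 (21006945 to 21007433), had ratios of 0.141 for the MDP library, 0.113 and 0.0667 for the cMoP libraries, 0.159 and 0.151 for the Ly6Chi libraries, 0.222 for the Ly6Clo library, and 0.118 and 0.117 for the knockout libraries. In both introns cMoP replicate 2 was lowest and Ly6Clo highest. Intron 1 of Mrps30 (chromosome 13, 118385380 to 118386651) had a mean ratio of 0.112. An intron of a noncoding transcript of Mrpl33 (chromosome 5, 31614268 to 31614602), marked in the tables as a minor isoform, had 0.109. The next 4 were intron 7 of Mrpl4 (0.0917), intron 5 of Mrpl37 (0.0887), intron 1 of Mrps10 (0.0881) and intron 4 of Mrpl38 (0.0824), all between coding exons.

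No member intron changed by the test. edgeR's quasi-likelihood test of boundary reads against spliced reads covered 197 introns in 50 member genes and called 0 in each of the 5 comparisons, where 0.0%, 0.0145%, 0.00623%, 0.0% and 0.00208% of 48132 introns were called in either direction for cMoP over MDP, Ly6Chi over cMoP, Ly6Chi over MDP, Ly6Clo over Ly6Chi and knockout over control. In the same order, 22, 35, 5, 17 and 16 of the 197 member introns had an unadjusted p under 0.05 in edgeR. Over all 48132 introns these counts were 4020, 5234, 1837, 2391 and 3342. DESeq2 gave 5, 10, 2, 6 and 7 member introns, beside 1374, 1790, 841, 1022 and 1212 of all introns, and also called 0 member introns after adjustment. The median log2 change in edgeR over member introns was -0.54, 0.76, 0.13, 0.54 and -0.35, beside -0.39, 0.38, 0.01, 0.11 and -0.32 over all introns tested. The median of all introns depended on the scaling: with boundary and spliced reads scaled apart by TMM, member medians were -0.13, 0.33, 0.09, 0.38 and -0.0087, beside -0.03, -0.01, -0.03, -0.05 and 0.0098 over all introns. DESeq2 gave -0.16, 0.37, 0.10, 0.41 and -0.05 for members, beside -0.07, 0.02, -0.03, -0.03 and -0.04. The member medians kept their signs, and those of all introns did not. Without cMoP replicate 2 the member median was -0.18 in cMoP over MDP and 0.41 in Ly6Chi over cMoP, beside -0.11 and 0.12 over all introns.

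The introns with the smallest p are named as not called. In Ly6Chi over cMoP, an intron of Mrpl2 (chromosome 17, 46648379 to 46648471) had ratios of 0.0338 and 0.0421 in Ly6Chi, against 0.0123 and 0.00574 in cMoP (log2 2.05 ± 0.44, edgeR adjusted p = 0.414). The minor-isoform intron of Mrpl33 had 0.177 and 0.130 in Ly6Chi, against 0.0694 and 0.0346 in cMoP (1.58 ± 0.38, adjusted p = 0.414), and a longer overlapping intron of Mrpl33 had a change of 1.28 ± 0.32. In Ly6Clo over Ly6Chi, the smallest p belonged to an intron of Mrps5 (chromosome 2, 127600059 to 127600828) that was lower in Ly6Clo, with 0 boundary reads beside 117 spliced reads in Ly6Clo, against 8 and 6 boundary reads beside 125 and 133 spliced reads in Ly6Chi (adjusted p = 0.948). Next was an intron of Mrpl32 (chromosome 13, 14610741 to 14611422), with a ratio of 0.159 in Ly6Clo, against 0.0219 and 0.0305 in Ly6Chi (1.81 ± 0.53, adjusted p = 0.948), and then 1 of Mrpl30 (1.77 ± 0.56). In the knockout over control Ly6Chi, an intron of Mrpl38 (chromosome 11, 116132557 to 116132742) had 0.0324 and 0.0275 in the knockout, against 0.00926 and 0.00862 in the controls (2.97 ± 0.75, adjusted p = 0.716), with introns of Mrpl20 (-2.05) and Mrpl14 (-3.53) next. In cMoP over MDP the smallest p belonged to introns of Mrps35, Mrpl42 and Mrpl37 (adjusted p = 0.597), and in Ly6Chi over MDP to introns of Mrpl48, Mrpl42 and Mrps15 (adjusted p = 1).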

How the data were processed

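The 8 libraries hold polyadenylated RNA, made into strand-specific libraries and sequenced as read pairs of 100 bp, per the labels' protocols. FastQC, Trimmomatic, STAR 2.5.2a and RSEM were used, with builds mm10 and hg38 listed, per the submitters' processing notes; no order or setting of the steps is stated there. The expression table that the authors deposited is named for FPKM, but each column sums to about 1000000, so its values were treated as TPM and the test planned for FPKM was kept. In the deposited intron tables, made by a program not given in the sources used here, counts are whole-number reads across the exon-intron boundaries and spliced reads, the signal is read depth over the intron, and the fraction is the retention ratio; a recomputed ratio lay within 0.0001 of the deposited one for 96.7% to 98.0% of introns.

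Expression was tested with limma 3.58.1 (lmFit, eBayes with trend) in R 4.3.3 on log2(TPM + 1), which understates the change of low genes, over genes that reached 1 TPM in 2 or more libraries. Retention was tested with edgeR 4.0.16 (glmQLFit, glmQLFTest) on boundary against spliced reads, over unmarked introns with at least 20 reads in every library and 20 boundary reads in all; DESeq2 1.42.0 was an alternative. All 8 libraries entered each fit and shared the estimate of spread, on 3 residual degrees of freedom. P-values were adjusted by Benjamini-Hochberg over all genes or introns, and adjusted values under 0.05 were called. Scripts were tested on simulated data. Gene places came from GENCODE M21 and promoter windows from RefSeq (GRCm38.p6).

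The members and lists were chosen with earlier results of these data known. Named genes were, per comparison, the 10 largest called changes in each direction, the 8 highest and 5 lowest mean levels, genes sharing a number, the 8 introns with the highest mean ratio and the 3 introns with the smallest p; Mrpl10, Mrpl24, Mrpl45, Mrps30, Mrps36 and the exon-overlapping genes were added for their role or annotation, after their values were seen. Alternatives were other pseudocounts, filters and scalings, a replicate block, fits of only 2 groups and leaving out each replicate.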

Additional observations from a re-analysis of the deposited data

How the results depend on the processing

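No called member turned its sign under any setting tried. Members that were not called did: under median centring or quantile normalisation 9 turned in cMoP against MDP, 1 in Ly6Chi against cMoP, 2 in Ly6Chi against MDP, 2 in Ly6Clo against Ly6Chi and 6 in the knockout. Other settings turned signs too. In cMoP against MDP, 68 members were positive and 9 negative in the main setting, and 43 and 34 without cMoP replicate 2. In Ly6Chi against cMoP, 47 to 69 members were called under other pseudocounts, filters and scalings, and of the 62 called in the main setting 45 to 62 were called there too. With no filter 59.7% of members were called lower in Ly6Chi against cMoP, beside 11.8% of all genes, and with quantile normalisation 88.3%, beside 33.7%. Across the settings tried for single genes, the 62 members called there stayed past the threshold in 676 fits and lost it in 130, the 25 called in Ly6Chi against MDP in 200 and 100, and the 3 called in Ly6Clo against Ly6Chi in 24 and 12.

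Counts of called members moved in the other comparisons. In cMoP against MDP, where none was called, 1 (1.3%) was called higher with no filter on low values, beside 1.17% of all genes. In Ly6Chi against MDP, where 25 were called, the count was 12 with no filter, 9 with median centring, 40 with quantile normalisation and 60 with only the 2 groups compared. In this order, 14.3%, 10.4%, 50.6% and 74.0% of members were called lower, beside 20.0%, 23.3%, 28.1% and 33.6% of all genes. In Ly6Clo against Ly6Chi, where 3 were called, the count was 5 with no filter, 1 with median centring, 6 with quantile normalisation and 20 with only the 2 groups compared. Of members 5.19%, 1.3%, 7.79% and 23.4% were called lower, beside 4.07%, 8.12%, 10.9% and 12.9% of all genes. Called member introns, none in the main setting, numbered 3 of 233 with no minimum per library in Ly6Chi against cMoP. These 3 were higher, beside 0.27% of all introns. With TMM scaling of boundary and spliced reads apart, 1 of 197 was higher in that comparison, beside 0.17% of all introns. With only the 2 groups compared, 1 of 197 was higher in Ly6Clo against Ly6Chi, beside 0.69% of all introns. In the knockout against control Ly6Chi, 2 of 197 were lower, beside 0.71% of all introns. The cause of these shifts was not tested.

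Leaving out 1 library in turn gave 0 to 48 called members in cMoP against MDP, 26 to 74 in Ly6Chi against cMoP, 4 to 61 in Ly6Chi against MDP, 0 to 31 in Ly6Clo against Ly6Chi and 0 to 0 in the knockout. For introns the ranges were 0 to 34 in cMoP against MDP, 0 to 54 in Ly6Chi against cMoP, 0 to 0 in Ly6Chi against MDP, 0 to 1 in Ly6Clo against Ly6Chi and 0 to 2 in the knockout. The 34 and the 54 were both reached without cMoP replicate 1, where 9.98% of all introns were lower in cMoP than in MDP and 14.1% higher in Ly6Chi than in cMoP. The 2 in the knockout came without either cMoP library, as did the 1 in Ly6Clo.

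Across 13126 genes, the difference between replicates 1 and 2 correlated at 0.063 between cMoP and Ly6Chi, -0.136 between cMoP and the knockout and -0.13 between Ly6Chi and the knockout. Each group gives only 1 such difference, so these values cannot tell whether replicate numbers pair the samples. With the number as a replicate block, Ly6Chi against cMoP gave 1 member higher and 54 lower, the knockout gave 0, and introns gave 0. Precision is limited by 2 libraries a group at most, by the missing read counts of the expression table and by low boundary counts of most introns.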
